A study of Mus musculus with 12 samples.

Results

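The S100 proteins are a family of small calcium-binding proteins, and 8 of their genes were followed here across the livers of mice on a normal or a high-fat diet: S100a1, S100a4, S100a6, S100a8, S100a9, S100a10, S100a11 and S100a13. Their probes were found by symbol, through the platform's table of probes and symbols, and all 8 had a probe, 1 each, among 19084 genes. The 8 were chosen with earlier results of these data known. Counts and medians over the 8, set beside those of all genes below, thus describe these genes and are no test of the family. Liver RNA of male C57BL/6 mice was measured on 12 single-colour arrays, 3 in each of 4 groups, and the arrays were made from groups of 6 mice. Mice of the first group ate a normal diet (ND) for 24 weeks, with 12.3% fat, 21.5% protein and 66.2% carbohydrate. The HFD16 and HFD24 groups ate for 16 and 24 weeks a high-fat diet with 36.1% fat, 21.6% protein and 42.3% carbohydrate, enriched with 2% cholesterol, lard, bile salt and egg yolk powder. The PTFC group ate the high-fat diet for 24 weeks and was given PTFC, the pure total flavonoids of citrus named in the study's title, by gavage at a daily 50 mg per kg for the last 18 of these weeks, after 6 weeks of the diet alone. The other groups received saline in the same volume, and all mice were fasted for 12 hours before liver was taken. HFD16 mice were 23 to 25 weeks old at that point and the other mice 30 to 33 weeks, so diet length and age cannot be told apart between HFD16 and HFD24, and age also differs between HFD16 and ND.

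S100 proteins have no enzymatic activity. Most bind calcium through EF-hand loops, form dimers, and on binding calcium expose a surface that grips partner proteins. S100A8 and S100A9 pair into calprotectin, an abundant protein of neutrophils and monocytes that is released during inflammation and is recognised by TLR4 and by the receptor RAGE. S100A4 is found in macrophages, other leukocytes and fibroblasts and binds non-muscle myosin, and S100A6 (calcyclin) is found in many proliferating and mesenchymal cells. S100A10, which does not respond to calcium, and S100A11 are the partners of annexins. S100A1 is best known from muscle, where it binds the ryanodine receptor, and S100A13 takes part in the release of the growth factor FGF1.

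After 24 weeks of the high-fat diet, 4 of the 8 genes were higher than on the normal diet, beside 9.97% of all genes tested. They were S100a4, S100a6, S100a9 and S100a11, by 5.47 to 8.29-fold. With the scaling step of the arrays, described below, as a covariate, S100a11 alone of them passed, at a log2 difference of 1.35 beside 2.45 without the covariate. In mice given PTFC, S100a4, S100a6 and S100a9 were lower than in HFD24 mice, beside 3.04% of all genes tested, while S100a11 did not pass the test. None of these lower genes passed without the first HFD24 array or without the third PTFC array, where 39 and 11 of all genes passed beside 1145 with all arrays. S100a1, S100a8, S100a10 and S100a13 passed in none of the 5 comparisons.

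Values are the intensities of the deposited table, and differences are on the scale of log2(intensity + 1) after quantile normalization, with standard errors (SE) from a limma fit over all 12 arrays. The threshold for a call was 0.05 for the p adjusted by Benjamini and Hochberg's method over the 19084 genes, and a gene below it is said to pass. The hepatocyte markers were present on every array (9 of 10 listed genes had a probe, and their summed intensity ran from 2193065 to 2616467). Arrays correlated with each other at 0.961 to 0.993 across genes, which are not independent replicates. The deposited values of each array were whole multiples of a step of its own, and that step was 1.23 to 1.46 on the ND arrays and 0.675 to 1.12 on the 9 others, so the steps of ND and of the other groups do not overlap. The third HFD16 array stood apart in markers of other tissues: its summed muscle markers read 10233.8 beside 978 and 959.6 on the first and second, and its adipocyte markers 3690.2 beside 675 and 514. The first HFD16 array stood apart in the summed dendritic cell markers, at 12796 beside 2889 and 2165. Among the HFD16 arrays Xcr1 of that list had an SD of 3.49 on the log2 scale, beside 1.14 for Clec9a, the next largest. That sum may thus rest mostly on Xcr1 alone. The labels do not say that the 3 arrays of a group came from separate animals, so the p-values speak of the spread among these samples alone, and that spread may be technical. In whole liver, fewer cells of a type and less RNA per cell cannot be told apart.

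The promoters of the genes that moved are shown here because 3 of them, S100a4, S100a6 and S100a9, lie in one run of neighbouring S100 genes on chromosome 3, and because S100a8, the neighbour and partner of S100a9, did not pass where S100a9 did, though its probe was dim. Each sequence is the RefSeq window (GRCm38.p6) from 250 bases before the annotated transcription start to 50 bases after it, printed in the direction of the gene. Of the 8 genes, 7 had such a window, and S100a10 is named only. Capitals mark TATAAA, the core promoter motif bound by the TATA-binding protein, or TGANTCA, the motif of AP-1 factors, each searched on both strands.
S100a4, chr3:90603520-90603819, plus strand: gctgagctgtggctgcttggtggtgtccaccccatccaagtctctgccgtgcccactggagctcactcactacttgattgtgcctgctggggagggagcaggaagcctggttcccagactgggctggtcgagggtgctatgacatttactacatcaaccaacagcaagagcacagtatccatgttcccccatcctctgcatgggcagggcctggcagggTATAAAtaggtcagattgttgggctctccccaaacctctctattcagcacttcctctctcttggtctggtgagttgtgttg
S100a6, chr3:90612644-90612943, plus strand: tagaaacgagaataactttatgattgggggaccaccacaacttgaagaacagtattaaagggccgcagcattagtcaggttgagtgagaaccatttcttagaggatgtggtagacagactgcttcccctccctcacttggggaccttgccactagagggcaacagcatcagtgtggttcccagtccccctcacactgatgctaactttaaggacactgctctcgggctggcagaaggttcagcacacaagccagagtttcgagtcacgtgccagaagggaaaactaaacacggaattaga
S100a8, chr3:90668821-90669120, plus strand: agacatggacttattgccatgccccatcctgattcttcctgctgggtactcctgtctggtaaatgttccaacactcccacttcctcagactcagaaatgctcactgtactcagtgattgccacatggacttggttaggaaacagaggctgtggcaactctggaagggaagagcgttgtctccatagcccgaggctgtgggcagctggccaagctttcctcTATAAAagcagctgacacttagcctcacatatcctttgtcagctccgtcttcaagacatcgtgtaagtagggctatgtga
S100a9, chr3:90695672-90695971, minus strand: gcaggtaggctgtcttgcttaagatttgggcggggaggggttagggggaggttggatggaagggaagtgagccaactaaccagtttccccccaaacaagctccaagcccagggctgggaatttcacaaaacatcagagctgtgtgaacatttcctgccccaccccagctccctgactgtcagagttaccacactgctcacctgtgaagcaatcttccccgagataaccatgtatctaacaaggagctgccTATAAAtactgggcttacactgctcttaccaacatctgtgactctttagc
S100a11, chr3:93520246-93520545, plus strand: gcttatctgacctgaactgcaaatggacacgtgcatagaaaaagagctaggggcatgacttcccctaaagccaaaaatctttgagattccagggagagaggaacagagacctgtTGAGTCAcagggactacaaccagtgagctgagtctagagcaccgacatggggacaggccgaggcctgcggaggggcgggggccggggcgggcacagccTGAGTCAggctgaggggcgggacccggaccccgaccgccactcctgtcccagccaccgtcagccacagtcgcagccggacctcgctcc
TATAAA began 31 bases before the start of S100a4, 30 bases before that of S100a8, and at the annotated start itself in S100a9. It was found in 13.6% of 32851 RefSeq windows of this length. TGANTCA was found in S100a11 only among the 7 windows, as TGAGTCA, 136 and 38 bases before the start, and in 7.81% of all windows. The windows of S100a6, S100a1 and S100a13 held neither motif. The windows of S100a1 and S100a13, which start on opposite strands, share 204 bases. The neighbours S100a8 and S100a9 thus both held TATAAA, while the tests passed for S100a9 and not for the dim probe of S100a8, and of the genes that passed S100a6 held neither motif. These matches describe letters in a window and not bound sites.

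**Figure D1:**
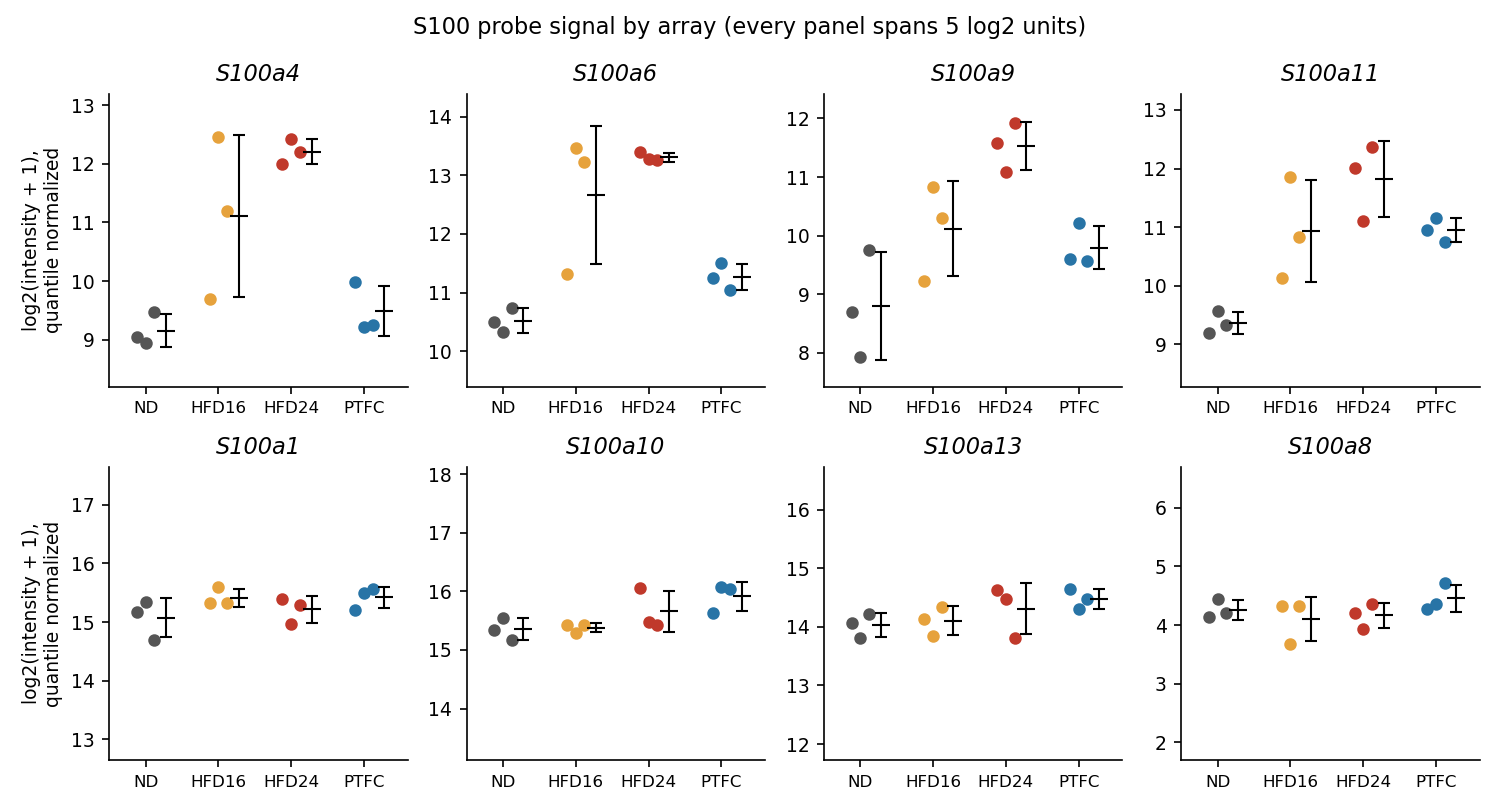
Quantile-normalized log2(intensity + 1) of the 8 S100 probes on each of the 12 arrays, with the mean and SD of each group beside the points; each panel has its own range but the same span, since levels of different probes are not comparable. The 3 HFD24 arrays lie above all 3 ND arrays for S100a4, S100a6, S100a9 and S100a11, and above all 3 PTFC arrays for the first 3 of these.

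The first comparison, HFD24 with ND, asks what 24 weeks of the diet did. Of the 8 genes, 4 rose and none fell (limma, adjusted p under 0.05), and 9.97% of all genes tested rose by the same rule. The median difference of the 8 was 1.38 on the log2 scale, beside -0.06 over all genes. The arrays of HFD24 lay wholly above those of ND for these 4 genes, as they did for 15.5% of all genes.

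For S100a9, the calprotectin subunit, the ND arrays read 463, 279.7 and 770, and the HFD24 arrays 2862, 2166 and 4036. The lowest HFD24 array thus stood above the highest ND array. The difference was 2.73 ± 0.45 (SE, n = 3 per group), or 6.65-fold, with a limma adjusted p of 0.00176. For S100a8, the other subunit, the 12 arrays read between 9.45 and 33.99, which placed the probe between percentiles 2.84 and 8.86 of its array. ND read 20.51, 25.87 and 17.3 and HFD24 11.4, 14.61 and 18.8, and the groups overlapped. The difference was -0.09, with an interval of -0.61 to 0.44 and a limma adjusted p of 0.836. The probe lay among the dimmest 25% of genes, where this scale understates a change, and it was not shown to read above background, so it sets no bound on a change of S100a8.

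S100a4, known from macrophages and fibroblasts, read 577, 544.5 and 643 on the ND arrays and 3796, 5368 and 4889 on the HFD24 arrays. All 3 HFD24 arrays were far above ND, and both groups were tight. It rose by 3.05 ± 0.49, or 8.29-fold, with a limma adjusted p of 0.00165, and its difference was at or above that of 99.69% of all genes. S100a6, calcyclin, read 1488, 1323 and 1576 on ND and 10160.1, 9543 and 10014.9 on HFD24. Its HFD24 arrays were the closest together of any group of the 4 genes that moved, with an SD of 0.07 on the log2 scale. It rose by 2.79 ± 0.41, or 6.89-fold, with a limma adjusted p of 0.00112. Within arrays the change of S100a4 differed from that of S100a6 by 0.27, and by -0.68 in PTFC against HFD24.

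Among the annexin partners, S100a11 read 637, 807 and 583 on ND and 3850.1, 2176 and 5427 on HFD24. The second HFD24 array was the lowest of its group and still above all of ND. S100a11 rose by 2.45 ± 0.38, or 5.47-fold, with a limma adjusted p of 0.0014. S100a10 read 42980 on the first, 48441 on the second and 36896 on the third ND array, and 67208, 44231 and 42601 on HFD24. Only the first HFD24 array stood above ND, and the groups overlapped. The difference was 0.30, with an interval of -0.08 to 0.69 and a limma adjusted p of 0.262. Within arrays, the change of S100a11 exceeded that of S100a10 by 2.15 without overlap (exact permutation test, two-sided p = 0.1, the smallest that 3 against 3 allows).

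The remaining genes did not pass. S100a1, the muscle and heart member, read between 26778 and 50411 over the 12 arrays and differed between HFD24 and ND by 0.14, with an interval of -0.25 to 0.53 (limma adjusted p = 0.632). S100a13, which serves FGF1 export, read between 14348 and 25780.4 and differed by 0.27, with an interval of -0.18 to 0.73 (limma adjusted p = 0.397). The 95% intervals of S100a1, S100a10 and S100a13 all ended below 1, a doubling, while those of the 4 genes that rose all began above 1.

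With the scaling step as a covariate, S100a11 alone still passed, though its difference went from 2.45 to 1.35 (limma adjusted p = 0.0444). S100a4, S100a6 and S100a9 differed by 2.18, 2.16 and 1.89 (limma adjusted p = 0.0772, 0.0545 and 0.0812). Under this setting 382 genes in all passed, beside 3483 without the covariate. All 4 genes passed with any 1 of the 12 arrays left out.

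**Figure D2:**
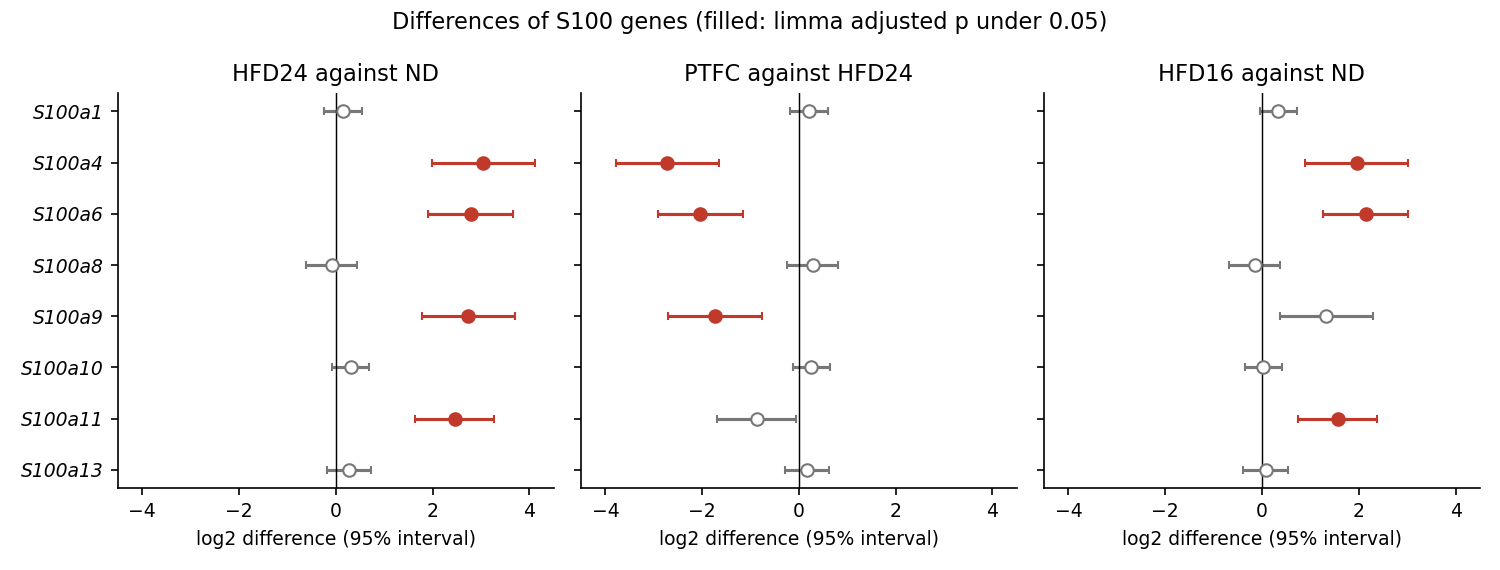
Log2 difference of each of the 8 S100 genes in 3 comparisons, with 95% intervals from the limma fit; filled points passed at an adjusted p under 0.05. In HFD24 against ND the differences of the 4 filled points run from 2.45 to 3.05, and in PTFC against HFD24 those of the 3 filled points from -2.72 to -1.73.

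The comparison of PTFC with HFD24 asks how liver differed when the extract was given along with the diet; it shares the HFD24 arrays with the comparison above. None of the 8 genes rose and 3 fell (limma, adjusted p under 0.05), beside 3.04% of all genes tested that fell. The median difference of the 8 was -0.35, beside 0.01 over all genes. The PTFC arrays lay wholly below the HFD24 arrays for the same 3 genes, as they did for 15.2% of all genes.

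S100a4 read 1128, 647 and 718 on the PTFC arrays. The first of these was the highest, and all were well under the HFD24 arrays. S100a4 fell by 2.72 ± 0.49 on the log2 scale, or 6.58-fold (limma adjusted p = 0.018). Of all genes, 0.0367%, S100a4 among them, had a difference this low or lower. S100a6 read 2492, 3030.3 and 2248 on the PTFC arrays, again without overlap with HFD24. It fell by 2.04 ± 0.41, or 4.11-fold (limma adjusted p = 0.0223).

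S100a9 read 876, 1261 and 873 on the PTFC arrays, all below HFD24. It fell by 1.73 ± 0.45, or 3.33-fold (limma adjusted p = 0.0413). S100a8 read 22.9, 23.11 and 33.99, and it differed by 0.29, with an interval of -0.24 to 0.81 (limma adjusted p = 0.507). The same limit of this dim probe holds here.

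S100a11 read 2055, 2398 and 1849 on the PTFC arrays. These lay close together and overlapped the lowest HFD24 array. The difference was -0.87 ± 0.38, with an interval of -1.69 to -0.05 (limma adjusted p = 0.177). S100a10 read 50575 on the first PTFC array, 73342 on the second and 76742 on the third, and differed from HFD24 by 0.26, with an interval of -0.13 to 0.65 (limma adjusted p = 0.407). The differences of S100a1 and S100a13 were 0.20 and 0.17 (limma adjusted p = 0.53 and 0.673), and their groups overlapped.

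Single arrays decided several of these calls. Without the first HFD24 array none of the 3 genes passed (limma adjusted p = 0.059 for S100a4, 0.0746 for S100a6 and 0.119 for S100a9). The same held without the third PTFC array (limma adjusted p = 0.0989, 0.115 and 0.18). Calls were lost across the whole fit: over all genes 39 and 11 passed in these 2 settings, beside 1145 with all arrays. Without the second HFD24 array S100a4 alone of the 3 passed, beside 233 genes in all (limma adjusted p = 0.0541 for S100a6 and 0.0657 for S100a9). S100a9 also missed the threshold when 1 of 5 other arrays was left out: the third of HFD24, the first or second of PTFC, the first of ND or the third of HFD16 (limma adjusted p = 0.106, 0.0957, 0.0604, 0.0518 and 0.057). Over all alternatives the difference stayed between -2.97 and -2.52 for S100a4, between -2.31 and -1.93 for S100a6 and between -1.96 and -1.54 for S100a9. The scaling steps of the 2 groups overlapped (0.856 to 1.03 for PTFC and 0.855 to 1.12 for HFD24), and with the step as a covariate S100a11 also fell, by 0.97 (limma adjusted p = 0.0224).

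The comparison of HFD16 with ND asks the same of 16 weeks of the diet. S100a4, S100a6 and S100a11 were higher in HFD16, 3 of the 8 genes, beside 10.0% of all genes tested (limma, adjusted p under 0.05). The HFD16 arrays lay wholly above ND for the same 3 genes, as they did for 16.9% of all genes. The median difference of the 8 was 0.83, beside -0.03 over all genes. S100a4 read 731, 5845 and 2251 on the HFD16 arrays and S100a6 read 2376, 11711 and 9399.6. S100a9 read 520.1, 1900 and 1183 and S100a11 read 999.6, 3896 and 1720.4. For each of these genes the first HFD16 array was the lowest of the group and the second the highest, and the SD of S100a4 on the log2 scale was 1.38 in HFD16 beside 0.21 in HFD24.

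S100a6 rose by 2.15 ± 0.41 (limma adjusted p = 0.00515), S100a4 by 1.95 ± 0.49 (limma adjusted p = 0.0175) and S100a11 by 1.56 ± 0.38 (limma adjusted p = 0.0149). S100a9 differed by 1.33 ± 0.45, its groups overlapped, and it did not pass (limma adjusted p = 0.0555). It did pass without the third ND array (limma adjusted p = 0.0123) or without the first HFD16 array (limma adjusted p = 0.0139). The call of S100a4 was lost when the first or second ND array or the third HFD16 array was left out (limma adjusted p = 0.063, 0.0581 and 0.0565), and when the 6 arrays were fitted alone (0.0604). Leaving out the first ND array also ended the call of S100a11 (limma adjusted p = 0.06). Without the third HFD16 array, which stood apart in muscle and adipocyte markers, 2 of the 8 genes passed, S100a6 with 1.87 and S100a11 with 1.62 (limma adjusted p = 0.028 and 0.0426) while S100a4 and S100a9 differed by 1.91 and 1.24 (limma adjusted p = 0.0565 and 0.144). Without the first HFD16 array S100a4, S100a6 and S100a11 passed as well as S100a9. The part of these markers in the HFD16 values was not tested. With the scaling step as a covariate none of the 3 passed, beside 101 genes in all. The differences were 0.93, 1.42 and 0.28 for S100a4, S100a6 and S100a11 (limma adjusted p = 0.522, 0.275 and 0.722). The differences of S100a1, S100a8, S100a10 and S100a13 lay between -0.15 and 0.34, and none passed.

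Between HFD24 and HFD16 none of the 8 genes passed, beside 0.0367% of all genes tested (limma, adjusted p under 0.05), and 3 of the 8 had an unadjusted p under 0.05. These were S100a9 with a difference of 1.41, S100a4 with 1.10 and S100a11 with 0.89 (limma adjusted p = 0.325, 0.494 and 0.479). The share of all genes under that unadjusted level was not counted, here or for the lists below, so such counts have no background to be read against. Only for S100a9, 1 of the 8, did the HFD24 arrays all lie above the HFD16 arrays, beside 6.25% of all genes. S100a6 differed by 0.64 (limma adjusted p = 0.617), and by -0.04 without the first HFD16 array.

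The comparison of PTFC with ND shows how far the treated livers stood from those on the normal diet. S100a11 was the 1 gene of the 8 that passed, beside 1.04% of all genes tested that rose (limma, adjusted p under 0.05). It was higher in PTFC by 1.58 ± 0.38, or 2.99-fold, and all 3 PTFC arrays lay above ND (limma adjusted p = 0.0469). This call was lost in 14 of 22 alternatives, where the adjusted p reached 0.696 with the scaling step as a covariate and a difference of 0.39. It was lost when any of 8 arrays was left out, namely each ND array (limma adjusted p = 0.172, 0.078 and 0.0796), each PTFC array (0.113, 0.129 and 0.124), the third HFD16 array (0.0697) or the first HFD24 array (0.0615).

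S100a4 differed from ND by 0.33, with an interval of -0.73 to 1.39 (limma adjusted p = 0.819); its arrays overlapped those of ND after normalization, and as deposited its lowest PTFC array read 647 beside 643 on the highest ND array. S100a6 stood above ND on all 3 PTFC arrays by 0.75, with an interval of -0.13 to 1.63 (limma adjusted p = 0.387); it passed without the first HFD16 array (limma adjusted p = 0.0392). S100a9 differed by 1.00, with an interval of 0.04 to 1.96 (limma adjusted p = 0.272). S100a10 and S100a13 were also higher than ND on all 3 PTFC arrays, by 0.56 and 0.44, without reaching the threshold (limma adjusted p = 0.119 and 0.311). In all, the PTFC arrays lay wholly above ND for 4 of the 8 genes, beside 10.0% of all genes. Each of the 5 comparisons shares arrays with others, so the levels are best read group by group. On the log2 scale, the group means of S100a4 in ND, HFD16, HFD24 and PTFC were 9.16, 11.11, 12.21 and 9.49. Those of S100a6 were 10.52, 12.67, 13.31 and 11.27, those of S100a9 were 8.80, 10.12, 11.53 and 9.80, and those of S100a11 were 9.37, 10.93, 11.82 and 10.95. For S100a11 the means of HFD16 and PTFC differed by less than the SD of either (0.87 and 0.20). Over the 4 groups together, the F test of limma passed for S100a4, S100a6, S100a9 and S100a11, 4 of the 8, beside 21.4% of all genes tested (adjusted p = 0.00388, 0.00286, 0.00694 and 0.00519).

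Along chromosome 3, RefSeq places 12 coding genes from S100a1 to S100a9, all of the S100 family and all with a probe. In order they are S100a1, S100a13, S100a14, S100a16, S100a3, S100a2, S100a4, S100a5, S100a6, S100a7a, S100a8 and S100a9, and 6 of them belong to the 8 genes studied here. S100a11 and S100a10 lie farther along, with 56 coding genes between S100a9 and S100a11. The genes that passed in HFD24 did not lie side by side. S100a5, between S100a4 and S100a6, differed by -0.30 between HFD24 and ND (limma adjusted p = 0.283). S100a7a and S100a8, between S100a6 and S100a9, differed by 0.01 and -0.09 (limma adjusted p = 0.987 and 0.836). The probes of both were among the dimmest 25% of genes, so neither sets a bound on a change. S100a3, on the other side of S100a2 from S100a4, fell by 0.81 (limma adjusted p = 0.0307).

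**Figure D3:**
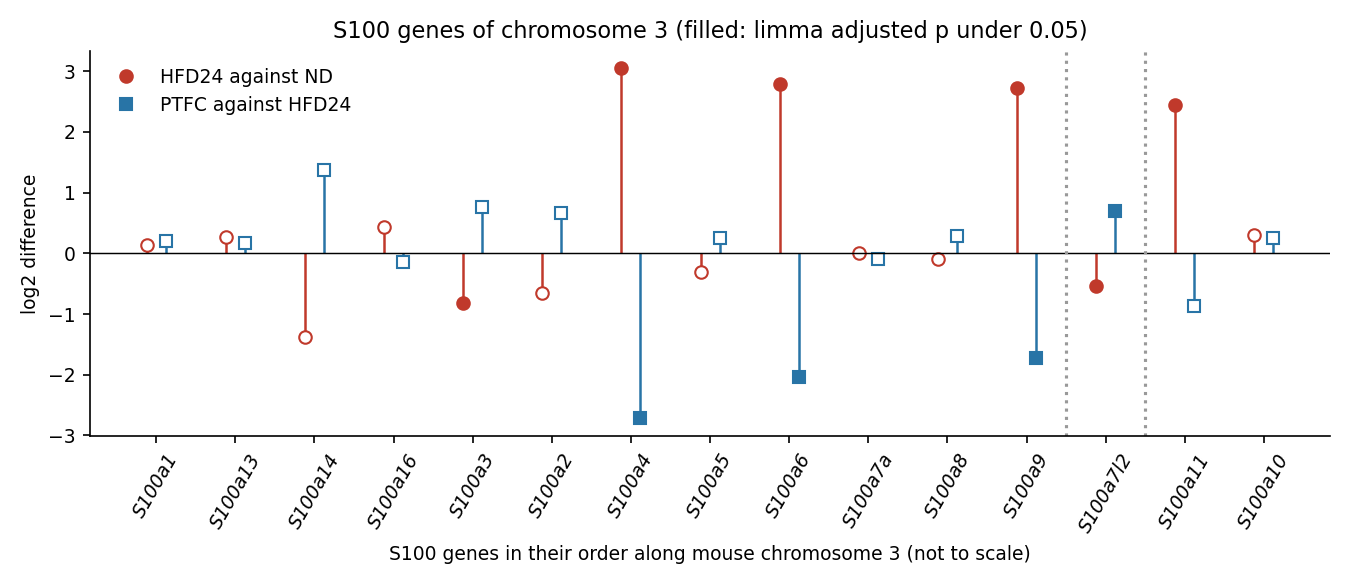
Log2 differences of the S100 genes of mouse chromosome 3 in their RefSeq order, not to scale, for HFD24 against ND (circles) and PTFC against HFD24 (squares); filled symbols passed at a limma adjusted p under 0.05, and dotted lines mark where other genes lie between. S100a4 at 3.05, S100a6 at 2.79 and S100a9 at 2.73 stand among neighbours such as S100a5 at -0.30. The S100a7a and S100a8 probes, at 0.01 and -0.09, are too dim to bound a change.

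Other S100 genes were a list of 9 with a probe each. In HFD24 against ND, 1 of the 9 rose and 2 fell (limma, adjusted p under 0.05), with a median of -0.47. S100g, the calcium carrier calbindin-D9k, rose by 1.11 (limma adjusted p = 0.0206), and S100a3 and S100a7l2 fell by 0.81 and 0.53 (limma adjusted p = 0.0307 and 0.0437). The S100g probe was among the dimmest 25% of genes. In PTFC against HFD24, S100a7l2 alone of the 9 passed and was higher by 0.69 (limma adjusted p = 0.0358), and in HFD16 against ND S100g alone of the 9, higher by 0.94 (limma adjusted p = 0.0424). S100a2, which is not in this list and was looked at after its values were seen, was lower by 1.03 in HFD16 against ND (limma adjusted p = 0.0188) and differed by -0.66 in HFD24 against ND and by 0.66 in PTFC against HFD24 (limma adjusted p = 0.0973 and 0.143). None of the 9 passed limma's test in HFD24 against HFD16 or in PTFC against ND, where 2 and 0 had an unadjusted p under 0.05. S100a11-ps, a pseudogene named after S100a11, has a probe of its own; its probe fell by 0.59 in HFD24 (limma adjusted p = 0.0242) where that of S100a11 rose. The probe sequences were not used here, so which copy each probe reads was not tested.

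Of 16 known receptors and binding partners of S100 proteins, 15 had a probe, and in HFD24 against ND 3 of them rose and 1 fell, with a median of 0.40 (limma, adjusted p under 0.05). Anxa2, which forms a complex with S100A10, rose by 2.70 ± 0.24 (limma adjusted p = 7.48e-05), and Anxa1, a partner of S100A11, by 2.65 ± 0.34 (limma adjusted p = 6.46e-04). The change of S100a10 was thus -2.40 relative to that of Anxa2 within arrays, without overlap (exact permutation test, two-sided p = 0.1), whereas S100a11 and Anxa1 differed in their changes by -0.20, with overlapping arrays. Of the receptors, Tlr4 rose by 1.24 ± 0.22 (limma adjusted p = 0.00238), and Ager, which encodes RAGE, differed by 0.12 ± 0.20 (limma adjusted p = 0.727). Cd36, a scavenger receptor that has been described as binding S100A8 and S100A9 with fatty acids, fell by 1.09 ± 0.19 (limma adjusted p = 0.00225), but another Cd36 probe differed by 0.67. Cacybp, the calcyclin-binding protein, differed by 0.40 (limma adjusted p = 0.1), Fgf1 by 0.10 (limma adjusted p = 0.85) and Ryr2 by 0.15 (limma adjusted p = 0.813). The Ryr2 probe was among the dimmest 25% of genes, so it sets no bound on a change.

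In PTFC against HFD24, Anxa2 fell by 1.03 (limma adjusted p = 0.0301) and Tlr4 by 0.90 (limma adjusted p = 0.0346), and Cd36 was higher by 1.00 (limma adjusted p = 0.0182; 0.37 for its other probe). These were the 3 of 15 partners that passed. Anxa1 differed by -1.10 with no overlap and did not pass (limma adjusted p = 0.0746). In HFD16 against ND, 5 partners rose (Anxa2, Anxa1, Cacybp, Ly96 and Anxa6) and 2 fell (Plg and Cd36). In PTFC against ND, Anxa2 and Anxa1 were higher by 1.67 and 1.55 (limma adjusted p = 0.00499 and 0.0347), the 2 of 15 that passed. In HFD24 against HFD16 none of the 15 passed limma's test, and 5 had an unadjusted p under 0.05.

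Markers of some other cell types, but not of all, rose in HFD24 against ND, and fewer of them passed in PTFC against HFD24. In HFD24 against ND, 10 of 11 measured monocyte and macrophage markers rose, with a median of 2.92, among them Cx3cr1 by 3.10, Cd68 by 2.96 and Trem2 by 3.29 (limma adjusted p = 9.65e-04, 0.00129 and 0.00185). Their summed intensity ran from 7364 to 12073 on ND, 13872 to 57237 on HFD16, 41088 to 57831 on HFD24 and 22510.3 to 33057 on PTFC. The first HFD16 array, lowest of its group for S100a4, S100a6, S100a9 and S100a11, was also the lowest in this sum. In PTFC against HFD24, Cx3cr1 alone of the 11 passed and fell by 1.75 (limma adjusted p = 0.0385), and the median was -0.99. No marker of this list, or of the others below, was at 0 on every array.

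Set against the mean of these markers within each array, a comparison chosen after the values were seen, the change of S100a11 differed from theirs by 0.06 in HFD24 against ND and by 0.10 in PTFC against HFD24, with overlapping arrays. S100a4 exceeded their change in HFD24 by 0.65, S100a6 by 0.39 and S100a9 by 0.34, the first 2 without overlap (exact permutation test, two-sided p = 0.1, 0.1 and 0.7). In PTFC against HFD24 the changes of S100a4, S100a6 and S100a9 were -1.74, -1.07 and -0.76 relative to the marker mean, which itself changed by -0.97, and all 3 without overlap (exact permutation test, two-sided p = 0.1 each).

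**Figure D4:**
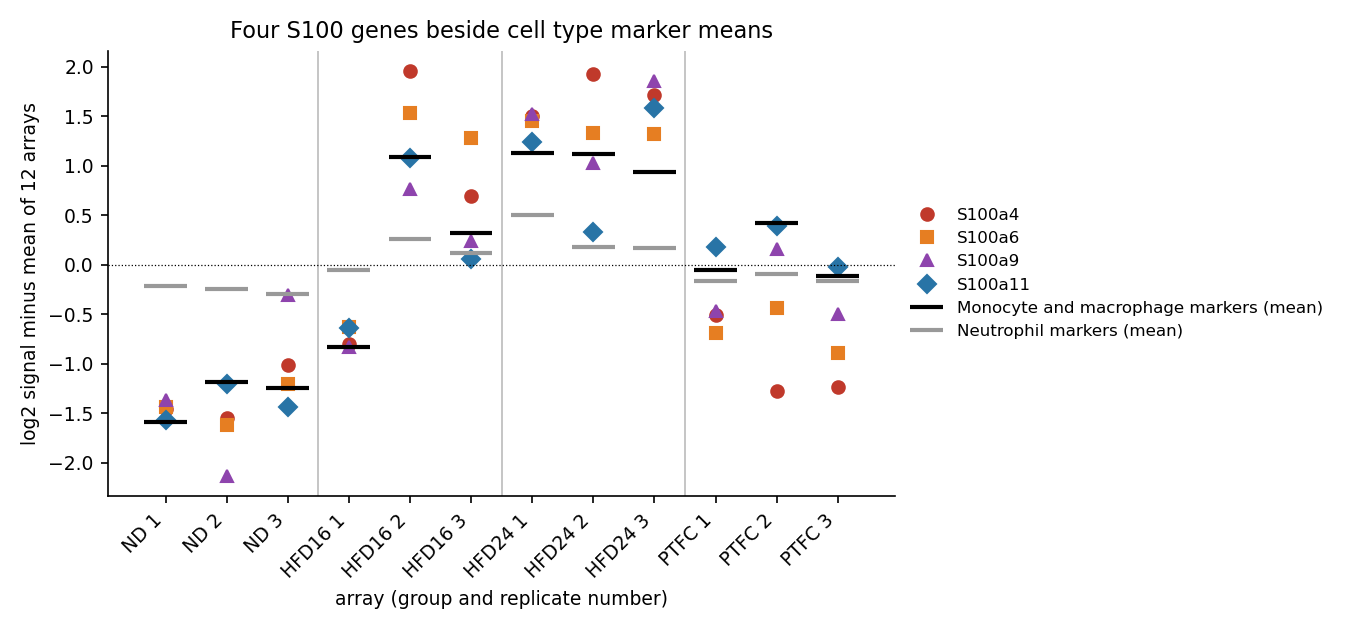
Log2 signal of S100a4, S100a6, S100a9 and S100a11 on each of the 12 arrays after subtraction of each gene's own mean, with bars for the mean of the 11 monocyte and macrophage markers (black) and of the 12 neutrophil markers (grey). The marker mean of macrophages runs from -1.58 on the first ND array to 1.12 on 2 HFD24 arrays, and on the PTFC arrays S100a4 lies below it.

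Of 12 measured neutrophil markers, 5 rose and 1 fell in HFD24 against ND, with a median of 0.65. Csf3r rose by 1.93 and Retnlg by 1.52, while Ltf fell by 0.76 (limma adjusted p = 0.00302, 0.0078 and 0.0108). Mmp8 and Mmp9 rose by 0.86 and 0.82 (limma adjusted p = 0.035 and 0.0429). Elane and Prtn3 differed by 0.64 and 0.70 (limma adjusted p = 0.0591 and 0.162), and Mpo and Ngp by -0.52 and -0.19 (limma adjusted p = 0.0628 and 0.516). The summed intensity of the list was 5645 to 7292 on ND, 8181 to 9130.2 on HFD16, 7509 to 9986 on HFD24 and 5854 to 7799.8 on PTFC. Within arrays S100a9 exceeded the neutrophil mean by 2.20 in HFD24 against ND (exact permutation test, two-sided p = 0.1). None of the 12 passed limma's test in PTFC against HFD24, and 6 had an unadjusted p under 0.05.

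Other markers that rose in HFD24 against ND were 6 of 7 of Kupffer cells, the resident macrophages of liver, 10 of 14 of stellate cells and fibroblasts with 1 that fell, 5 of 7 of dendritic cells and 4 of 7 of endothelial cells. In PTFC against HFD24, 3 stellate cell markers (Pdgfrb, Col3a1 and Col1a2) and 3 dendritic cell markers (Flt3, Ccr7 and Itgax) fell, and none of the Kupffer and endothelial lists passed limma's test, with 3 and 0 at an unadjusted p under 0.05. The summed intensity of the Kupffer list ran from 14124 to 36602 on ND, 30965 to 106121 on HFD16, 78393 to 136224 on HFD24 and 48410.4 to 60177 on PTFC. That of the stellate list ran from 50412 to 84766 on ND, 97434 to 183146 on HFD16, 123653 to 170643 on HFD24 and 108760.0 to 165085 on PTFC. That of the dendritic list ran from 1161 to 1641 on ND, 2165 to 12796 on HFD16, 2245 to 2669 on HFD24 and 1193 to 1419 on PTFC, and that of the endothelial list from 22104 to 32075, 32557 to 42597, 39236 to 53879 and 39798 to 46424. In the same HFD24 against ND comparison, none of the 9 hepatocyte markers rose and 1 fell. Among T and NK cell, B cell and mesothelial markers 1 of each list rose, with 2 B cell markers that fell, beside 9.97% of all genes that rose. None rose among cholangiocyte, erythroid, adipocyte, muscle, Schwann cell and pancreas markers, where Epcam of the first list and Cpb1 of the last fell by 0.60 and 1.08 (limma adjusted p = 0.0133 and 0.00942). What part changes in cell makeup had in the S100 differences was not tested beyond these values.

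The genes whose profiles over the 12 arrays came closest to those of the 4 moving genes were ranked by the root mean square distance between profiles, each centred on its own mean. For S100a4, whose own values had a root mean square of 1.38 around their mean, these were Procr, the endothelial protein C receptor gene, at 0.31, and Runx3, a transcription factor gene, at 0.37. For S100a6 (1.21) they were Kdm2a, a histone demethylase gene, at 0.24, and Runx3 at 0.27. For S100a9 (1.12) they were Syndig1 at 0.18 and Gpr137b at 0.36. For S100a11 (1.00) they were Tagln2, an actin-binding protein gene, at 0.28, and Anxa2 at 0.30. Among the 8 genes themselves S100a4 and S100a6 lay at 0.40 from each other, the closest pair of the 4, and S100a8 and S100a9 lay at 1.23. The points share the same 12 arrays, and the ranking is a description.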

How the data were processed

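Per the labels' protocols, Trizol served to extract liver RNA, which was amplified and coupled to Cy5. The values the authors deposited are linear intensity values of 26423 probes on 12 single-colour arrays, 3 in each group. The authors' background subtraction and scaling are not given in the sources used here. Among the probes, 21876 had 1 gene symbol and 4547 none, and the probe of highest mean was kept for each of 19084 genes, 1 probe for each S100 gene studied.

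Values below 0 (291) were set to 0, 1 was added as pseudocount, and the log2 values were quantile normalized. limma 3.58.1 (R 4.3.3; eBayes with a trend) fitted the 4 group means over the 12 arrays, with two-sided tests, with Benjamini-Hochberg adjustment over all genes and a threshold of 0.05. The fit was tested on simulated data: with 200 genes changed in HFD24 against ND, it recovered 60% of changes of log2 size 1 and 91% of size 2, with 6.21% false among those called. The simulated noise was independent between genes, and 3483 genes were called in the real comparison. These rates therefore need not hold for the real data. Single values within arrays were compared by an exact two-sided permutation test.

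The S100 genes, the marker and partner lists and the rule for naming were chosen with earlier results of these data known. That rule named the 8 genes, any gene of the S100 and partner lists, up to 4 markers of smallest p in HFD24 against ND per list, and the 2 nearest profiles of each gene past the F test. Markers and comparisons named beyond that rule (S100a2, S100a11-ps, Mpo, Ngp, Mmp9, Elane, Prtn3, Xcr1 and, as arrays that stood apart, the muscle, adipocyte and dendritic sums of HFD16) were chosen after their values were seen. The array number per group limits the precision. Same-numbered arrays deviated together at a median correlation of -0.05 (-0.29 to 0.17 over 18 pairs), so replicate numbers were not used as pairs. Another pseudocount, other scalings, a filter on dim genes, other probe rules, a replicate block, the scaling step as a covariate, smaller fits and leaving out each array were tried.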

Additional observations from a re-analysis of the deposited data

How the results depend on the processing

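Of 875 differences of single S100 genes recomputed under 22 alternatives, 812 kept their direction and side of the threshold, 39 lost a call, 6 gained one and 18, none of them called, changed sign. Those of changed sign in HFD24 against ND were S100a1 (-0.03 with the scaling step, and -0.05 to 0.28 with 1 array left out, negative without ND replicate 3) and S100a8 (0.11 with the step, and -0.18 to 0.02, without HFD24 replicate 2, or 0.00, without ND replicate 2). In PTFC against HFD24 they were S100a1 (-0.05) and S100a13 (-0.12) under median centring and, with 1 array left out, S100a13 (-0.08, without HFD24 replicate 3, to 0.33). In HFD16 against ND they were S100a10 (-0.02 on the authors' scale, and -0.06, without ND replicate 3, to 0.13), S100a8 (0.08 with the step, and -0.26 to 0.07, without HFD16 replicate 2) and S100a13 (-0.04, without ND replicate 2 or HFD16 replicate 3, to 0.21). In HFD24 against HFD16 they were S100a6 (-0.04, without HFD16 replicate 1, to 1.04) and S100a8 (-0.15, without HFD16 replicate 2, or -0.03, without HFD24 replicate 3, to 0.17), and in PTFC against ND S100a4 (-0.62 with the step).

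With the step as a covariate, 1 S100 gene and 382 genes in all passed in HFD24 against ND, 0 and 101 in HFD16 against ND, 0 and 25 in PTFC against ND, and 12 genes in HFD24 against HFD16. The step does not overlap between ND and the other groups, and the cause of the losses was not tested. With a replicate block, though the numbers do not pair the arrays, 337 genes passed in PTFC against HFD24, S100a9 did not (limma adjusted p = 0.0577), 4 genes passed in HFD24 against HFD16, and S100a11 did not pass in PTFC against ND (limma adjusted p = 0.0707), which left 0 S100 genes there. That count was also 0 under median centring, on the authors' scale, with every probe as its own row and without a trend in the prior variance. Median centring left 229 genes in PTFC against ND and 4 in HFD24 against HFD16, the authors' scale 3 and the filter on dim genes 3 in the latter, and a fit on the 6 arrays compared 0 there and 1745 in PTFC against HFD24. S100a9 passed in HFD16 against ND under median centring (limma adjusted p = 0.0377) and without the dimmest genes (0.046).

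Leaving out 1 array at a time gave 4 to 4 S100 genes and 1734 (without ND replicate 1) to 4939 (without ND replicate 3) genes in all for HFD24 against ND, and 0 to 3 and 11 (without PTFC replicate 3) to 1973 (without ND replicate 3) for PTFC against HFD24, where 39 were left without HFD24 replicate 1. It gave 1 to 4 and 1339 (without ND replicate 1) to 4516 for HFD16 against ND, 0 to 0 and 3 to 10 for HFD24 against HFD16, 0 to 2 and 58 (without PTFC replicate 3) to 658 for PTFC against ND, and 4 to 5 S100 genes for the F test. On the authors' scale the median of all genes shifted to -0.23 in HFD24 against ND, -0.22 in HFD16 against ND and 0.24 in PTFC against HFD24, and the share of calls that were higher went from 54.64% to 41.29%, from 55.29% to 34.44% and from 49.26% to 90.48%. In PTFC against ND that share went from 44.72% to 68.73% on the authors' scale and to 32.75% under median centring, which took it to 37.28% in PTFC against HFD24. In HFD24 against HFD16 it went from 42.86% of 7 calls to 66.67% of 3 and 0% of 4.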
